A study of Sus scrofa with 20 samples.

Results

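The comparison described here set the ileal mucosa of piglets in the second week after weaning against that of piglets in the first week. The later group, 21W35D, held 3 crossbred piglets (Landrace, Large white and Duroc) weaned at 21 days of age and examined at 35 days, 14 days after weaning. The earlier group, 21W28D, held 3 piglets of the same cross, weaned at the same age and examined at 28 days, 7 days after weaning. These 6 arrays, 1 piglet each, were taken by their deposited labels from 20 GeneChip Porcine Genome arrays, which also held suckling piglets that stayed with the sow and got no solid feed (S14D, S21D, S28D and S35D, with 3, 4, 4 and 3 arrays). The weaned piglets ate a commercial weaning diet from day 21 on, so that age, days after weaning and days on that diet advanced together between the groups and cannot be told apart.

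The deposited labels of the S35D and 21W28D arrays may be exchanged. Correlation over all probe sets put the 3 arrays labelled S35D nearer to 21W35D than to S28D, and 2 of the 3 arrays labelled 21W28D nearer to S28D than to 21W35D. Of the 21W35D arrays, 2 of 3 were nearer to S28D than to the arrays labelled S35D. Only 1 of 3 was nearer to the arrays labelled S35D than to 21W28D. By label, S35D and 21W35D share an age of 35 days, and 21W28D and S28D one of 28 days. Nearness by age and an exchange of labels can therefore not be told apart by the correlations of the S35D and 21W28D arrays. All values below follow the deposited labels. The differences of 21W35D from the arrays labelled S35D, which would be its differences from 21W28D if the labels were exchanged, are given for the called genes and the medians of the main lists.

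The distal small intestine of the piglet carries a long continuous Peyer's patch, so scraped ileal mucosa holds absorptive epithelium together with follicle B cells, T cells and connective tissue. In the second week after weaning, the gut is still adapting to solid feed and to a microbiota no longer shaped by milk. Interferon-induced genes are the best known antiviral programme of mucosal cells. RNA sensors such as DDX58 (RIG-I) lead to interferon release, the interferon receptors signal through JAK and STAT proteins and the factor IRF9, and the induced genes, among them RSAD2, the IFIT and MX families and the ubiquitin-like protein ISG15, act against viral replication.

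Values were gcRMA levels in log2 units, with a floor of 2.08 and a highest value of 16.4. The medians of the arrays lay between 5.14 and 5.26 in 21W35D and between 5.19 and 5.27 in 21W28D. FABP6, the ileal bile acid binding protein, was at 15.6 in 21W35D and 15.9 in 21W28D and the epithelial adhesion gene EPCAM was above 14 in all 6 arrays, so defining genes of ileal epithelium were present. The reference gene ACTB had a difference of 0.01, and GAPDH one of -0.10. The 9 measured reference genes had a median of -0.16, between -0.35 (HPRT1) and 0.17 (B2M), and 6 of them were negative. Replicate 2 of 21W35D stood apart. It correlated at 0.970 with the mean of the other 21W35D arrays, against at least 0.987 for the other 5 arrays with the rest of their group, and it was the lowest of the 6 arrays for 8 of 8 B cell genes. A whole-tissue level cannot tell fewer cells of a type from less RNA per cell.

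A probe set was called where limma, with 1 mean per group over all 20 arrays, gave an adjusted p under 0.05 (Benjamini-Hochberg over 23999 probe sets) and a difference of at least 2-fold. Of these, 15 rose in 21W35D (0.0625%) and 1 fell (0.00417%). At an unadjusted p under 0.05 there were 2126 probe sets, 1037 higher and 1089 lower. Of the 16 calls, 10 carried a gene symbol, and 4 of the 9 named genes that rose belong to the interferon-induced programme. The number of calls was 32 without 21W35D replicate 1 and 9 without 21W35D replicate 3, and 14 to 22 without any other of the 6 arrays.

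The 4 interferon-induced genes and AREG had the largest differences among the 16 calls. RSAD2, which encodes viperin, an enzyme of the endoplasmic reticulum and lipid droplets that limits the growth of many viruses, stood at 13.78, 14.00 and 14.14 in 21W35D, against 9.59, 10.49 and 9.35 in 21W28D. The groups were separated by more than 3 log2 units, and the difference was 4.16 ± 0.54 (limma SE, n = 3 each), or 17.9-fold (adjusted p = 0.0093, limma). DDX58, the cytosolic sensor of viral RNA, was at 7.63, 8.24 and 8.65 in 21W35D and at 2.09, 4.76 and 3.16 in 21W28D by the probe set that was called. Replicate 1 of 21W28D lay at the floor, so that the difference of 4.84 ± 0.76 (adjusted p = 0.0254, limma, n = 3 each) depends on how the dimmest values are read. A brighter probe set of DDX58 had 10.80, 10.53 and 11.33 in 21W35D, against 6.50, 8.84 and 7.42 in 21W28D, and at an adjusted p of 0.064 (limma, n = 3 each) it was not called.

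ISG15, which is joined to other proteins after interferon signalling, was at 13.47, 13.61 and 13.92 in 21W35D, against 9.22, 11.37 and 9.65 in 21W28D. It rose by 3.59 ± 0.61 (adjusted p = 0.044, limma, n = 3 each), a call that was kept in 1 of the 6 fits that left out an array. The call was also lost when the arrays were quantile normalized again. Replicate 2 of 21W28D was the highest of its group for ISG15, as it was for 14 of the 17 IFIT and antiviral effector genes that reached 4 log2 units. IFIT1, which binds viral RNA lacking the host's cap modification, was at 13.56, 13.55 and 13.72 in 21W35D and at 9.91, 11.42 and 10.34 in 21W28D by the called probe set. Its difference was 3.05 ± 0.43 (adjusted p = 0.0147, limma, n = 3 each). The other IFIT1 probe sets were not called, with differences of 2.63 and 1.90. RSAD2 and IFIT1 were called whichever of the 6 arrays was left out, whereas DDX58 was called in 2 of the 6 such fits.

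**Figure D1:**
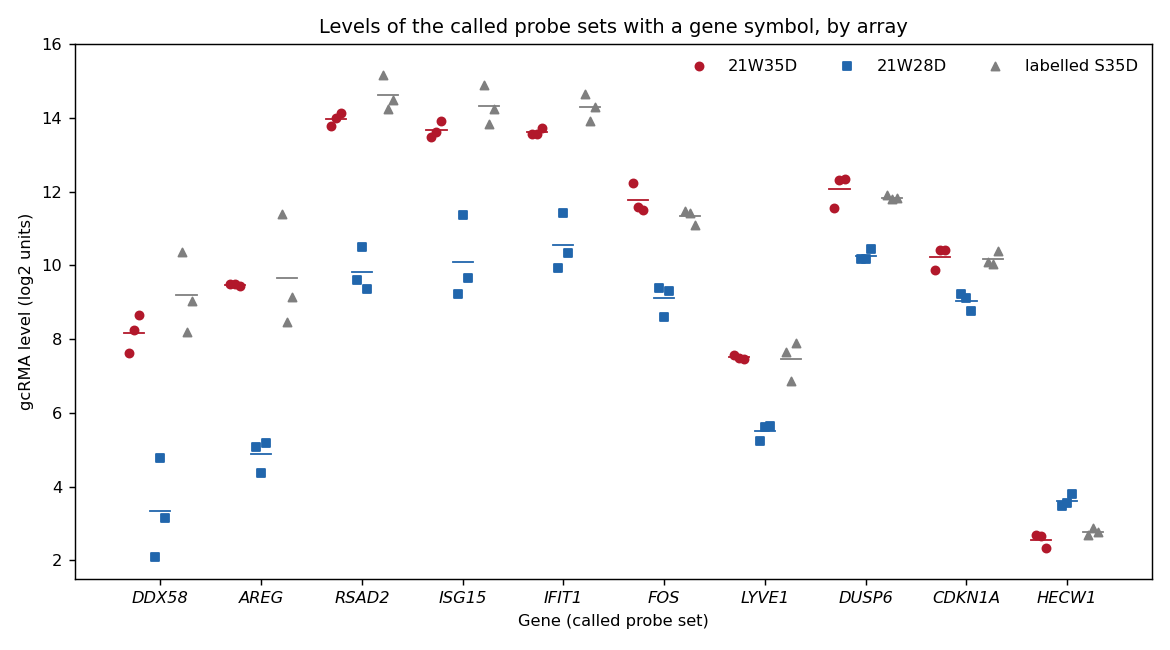
gcRMA level (log2 units, y axis) of the 10 called probe sets with a gene symbol (x axis), 1 point per array and a line at the group mean, for 21W35D, 21W28D and the arrays labelled S35D. The 21W35D arrays lie above the 21W28D arrays for 9 genes and below them for HECW1, and the mean of the arrays labelled S35D lies within 1.02 of that of 21W35D for all 10.

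The rest of the interferon programme was counted over lists, with the brightest probe set standing for each gene. Over all 6765 genes with a symbol, the 3 arrays of 21W35D lay wholly above those of 21W28D in 7.44% and wholly below in 6.06%, and the median difference was 0. Of 18 measured IFIT and antiviral effector genes, 15 lay wholly above and none wholly below, with a median difference of 1.62. RSAD2 was the called member, and IFIT1 was called by another probe set. Of 5 measured genes of the ISG15 system and the IFI group, all 5 lay wholly above, with ISG15 called and a median of 1.70. Of 7 viral RNA and DNA sensors, 4 lay wholly above and 1 wholly below (median 1.07). These counts stand well above the background shares, and they concern genes chosen with earlier results of these arrays known.

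Several uncalled members differed by as much as the called ones. MX2, a dynamin-like GTPase, was at 10.05, 9.28 and 9.68 in 21W35D and 5.07, 7.14 and 5.11 in 21W28D, a difference of 3.90 ± 0.71 (adjusted p = 0.064, limma, n = 3 each). Its relative MX1 differed by 2.45. XAF1, which promotes cell death, differed by 3.06, and OAS1, which makes the messenger that activates RNase L, by 2.64. IFIT3 differed by 2.63 and IFIT2 by 2.32. None of these overlapped between the groups. USP18, the protease that removes ISG15 and restrains the interferon receptor, was at 11.95, 11.54 and 12.20 in 21W35D and 9.64, 10.39 and 9.78 in 21W28D (difference 1.97 ± 0.39, adjusted p = 0.091, limma, n = 3 each).

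Among the sensors, ZBP1, which binds Z-form nucleic acids, differed by 2.84, the helicase DDX60 by 2.71 and the RNA-activated kinase EIF2AK2 by 1.07, each without overlap and none called. TLR9, the receptor for bacterial DNA that is prominent in B cells, was the member below, at 4.03, 3.02 and 3.67 in 21W35D against 4.15, 4.88 and 4.30 in 21W28D. MAVS and TLR8 were at or near the floor in all 6 arrays, and no difference can be read for them.

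Interferon signalling genes had smaller differences than the genes they induce. Of 18 measured, none was called, 3 lay wholly above and none wholly below, and the median was 0.20. IRF7, the factor that amplifies interferon transcription, was at 11.18, 11.94 and 11.18 in 21W35D, against 9.07, 9.36 and 8.51 in 21W28D, a difference of 2.45 (adjusted p = 0.064, limma, n = 3 each). IFNGR1, the ligand-binding chain of the interferon gamma receptor, differed by 1.01 and STAT2, a partner of IRF9, by 0.54. IRF9 differed by 0.79 and IRF1 by 0.25, both with overlapping groups. IFNG itself was dim, at 4.36, 3.59 and 5.39 in 21W35D and 3.27, 2.88 and 4.34 in 21W28D, which overlapped.

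Of 15 measured genes of MHC class I presentation, none was called and 6 lay wholly above. Differences were small, with a median of 0.26. TAP1, which carries peptides into the endoplasmic reticulum, differed by 0.64, the proteasome activator PSME2 by 0.53 and B2M, the class I light chain, by 0.17.

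**Figure D2:**
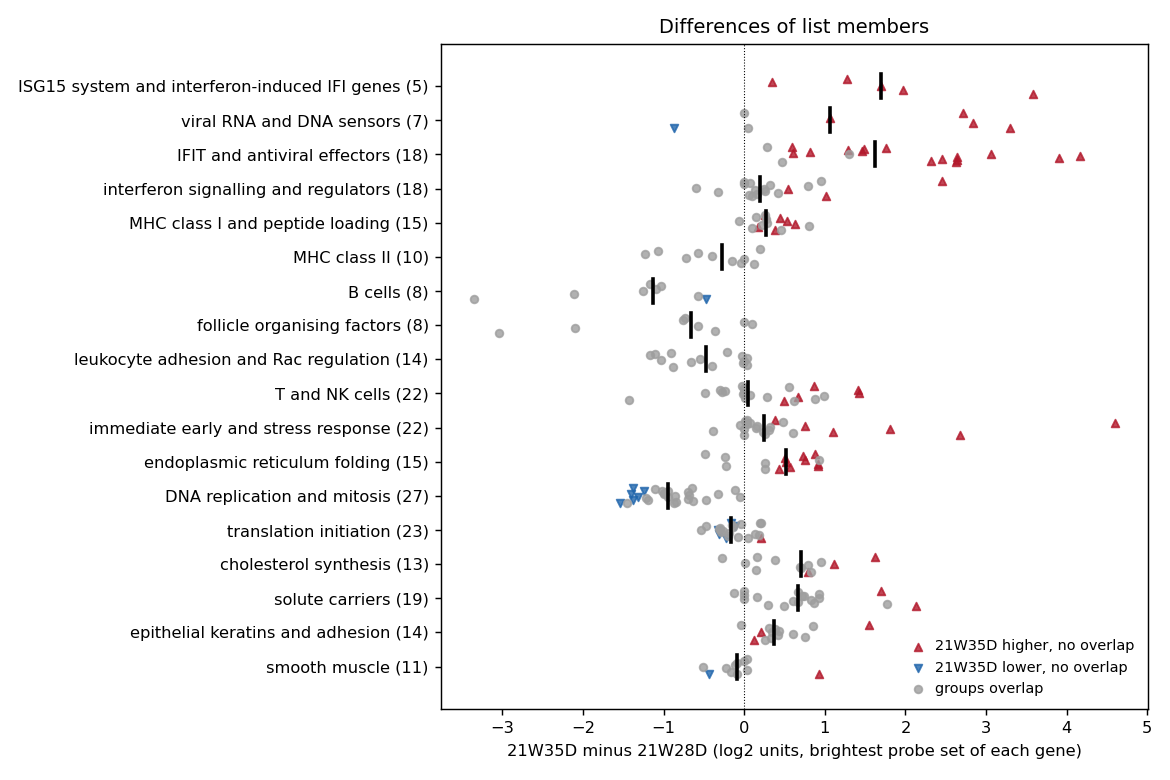
Difference of 21W35D minus 21W28D (log2 units, x axis) for each measured member of 18 gene lists (y axis, number of measured genes in brackets), with a black bar at the list median. Triangles are genes whose 3 against 3 arrays did not overlap and circles those that overlapped. Members of the IFIT and ISG15 lists lie to the right (medians 1.62 and 1.70), and those of DNA replication to the left (median -0.95).

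Of the growth factor and immediate early genes, AREG, FOS and DUSP6 also rose. AREG, the EGF receptor ligand amphiregulin, was at 9.50, 9.50 and 9.44 in 21W35D, against 5.07, 4.37 and 5.18 in 21W28D. The 21W35D arrays were nearly equal, and the difference was 4.61 ± 0.72, or 24.3-fold (adjusted p = 0.0254, limma, n = 3 each). FOS, a subunit of the AP-1 transcription factor that is induced within minutes of a stimulus, was at 12.23, 11.58 and 11.50 in 21W35D and 9.39, 8.61 and 9.30 in 21W28D, 6.37-fold higher (adjusted p = 0.0093, limma, n = 3 each). DUSP6, the phosphatase that inactivates ERK and is itself induced by ERK signalling, was at 11.55, 12.31 and 12.33 in 21W35D and at 10.17, 10.17 and 10.44 in 21W28D. It rose 3.49-fold (adjusted p = 0.0115, limma, n = 3 each), and a second probe set differed by 2.02 without being called. FOS and DUSP6 were called in all 6 fits that left out an array, and AREG in 2 of the 6.

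Of the 22 measured genes of this list, AREG, FOS and DUSP6 were called, 6 lay wholly above and none wholly below, and the median was 0.24. JUN, the partner of FOS, was at 11.36, 12.19 and 11.62 in 21W35D and 11.25, 9.72 and 10.88 in 21W28D, a difference of 1.11 that was not called. ZFP36, which destabilises cytokine transcripts, differed by 0.75. EGR1 (0.25), ATF3 (0.60), IER2 (0.23) and MYC (0.14) overlapped between the groups. The heat shock genes of the list had differences between -0.05 (HSPH1) and 0.48 (HSPB1), and none was called.

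CDKN1A, the p21 inhibitor of cyclin-dependent kinases, rose 2.31-fold. It was at 9.88, 10.42 and 10.41 in 21W35D and 9.21, 9.11 and 8.76 in 21W28D (adjusted p = 0.0354, limma, n = 3 each), and the call was kept in 2 of the 6 fits that left out an array. CDKN1A was also no longer called when each array was centred on its median. Among 10 measured regulators of the step from G1 to S phase it was the only call. CDK2, the kinase of that step, was at 8.47, 6.16 and 8.40 in 21W35D, against 8.49, 9.24 and 9.52 in 21W28D, a difference of -1.41 that was not called.

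LYVE1, the hyaluronan receptor of lymphatic endothelium and of some tissue macrophages, rose 4.03-fold. Its levels were 7.57, 7.49 and 7.46 in 21W35D, against 5.23, 5.61 and 5.65 in 21W28D (adjusted p = 0.0211, limma, n = 3 each), and the call was kept in 3 of the 6 fits that left out an array. A dimmer probe set of LYVE1 differed by 0.70 without being called, and a further one was at the floor in both groups. LYVE1 was the only call among 12 measured genes of blood and lymph vessels, whose median was 0.01. Of these 12, 6 reached 4 log2 units, so that median includes dim genes for which little difference can be read. PDPN, another lymphatic marker, differed by 0.26 and PECAM1, a marker of all endothelium, by -0.16, both with overlap. Of 17 measured myeloid genes, none was called, 12 reached 4 log2 units, 9 had positive and 3 negative differences, and the median was 0.14. Their differences lay between -1.08 (CYBB, a subunit of the phagocyte oxidase) and 1.39 (CD163, a macrophage scavenger receptor). CD163 was at 7.99, 4.19 and 8.39 in 21W35D and 5.15, 5.85 and 5.42 in 21W28D, with 21W35D replicate 2 below all other arrays. Without that array its difference was 2.72 and was called, and it was singled out after its values were seen.

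The only probe set called lower was one of HECW1, a ubiquitin ligase. It was named after its values were seen, since it lay below 4 log2 units in every array: 2.68, 2.66 and 2.34 in 21W35D, against 3.48, 3.54 and 3.80 in 21W28D (difference -1.05 ± 0.13, adjusted p = 0.0093, limma, n = 3 each). Levels this near the floor leave little room below them, and the call was kept in 4 of the 6 fits that left out an array.

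The 6 probe sets that rose and have no gene symbol here differed by 1.30 to 2.49. Ssc.9136.1.S1_at was at 8.77, 9.41 and 8.04 in 21W35D and at 5.93, 6.43 and 6.39 in 21W28D, and Ssc.30527.1.A1_at at 4.58, 5.97 and 5.47 in 21W35D and 3.24, 2.80 and 3.14 in 21W28D. Neither pair of groups overlapped. The call of Ssc.30527.1.A1_at was kept in all 6 fits that left out an array. That of Ssc.9136.1.S1_at was kept in 1 of the 6, and it was lost when each array was centred on its median (adjusted p = 0.051, limma, n = 3 each) or quantile normalized again (adjusted p = 0.062, limma, n = 3 each).

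Set against the arrays labelled S35D, the called genes gave other values. RSAD2 was at 15.15, 14.24 and 14.49 in those arrays, which lay above all 3 of 21W35D, and its difference was -0.65. ISG15 differed by -0.65, IFIT1 by -0.67 and DDX58 by -1.02, and AREG by -0.19. The positive differences were 0.45 for FOS, 0.23 for DUSP6, 0.07 for CDKN1A and 0.05 for LYVE1. None of these 9 genes was called in that comparison. Of all probe sets, 5 were called in it (0.0208%), 3 higher and 2 lower, against 1406 at an unadjusted p under 0.05. Of the 16 probe sets called against 21W28D, Ssc.30527.1.A1_at (2.28 against 21W28D, 2.49 against the arrays labelled S35D) and Ssc.22877.1.A1_at (1.30 and 1.34) were called against both. Both comparisons share the 21W35D arrays. For Ssc.22877.1.A1_at the arrays labelled S35D and those of 21W28D lay at or near the floor, at 2.09 to 2.21, so that both differences were taken from the same floor and their likeness cannot be read. Ssc.30527.1.A1_at was dim too, at 2.80 to 3.24 in 21W28D and 2.67 to 3.03 in the arrays labelled S35D. The likeness of its 2 differences is limited in the same way.

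**Figure D3:**
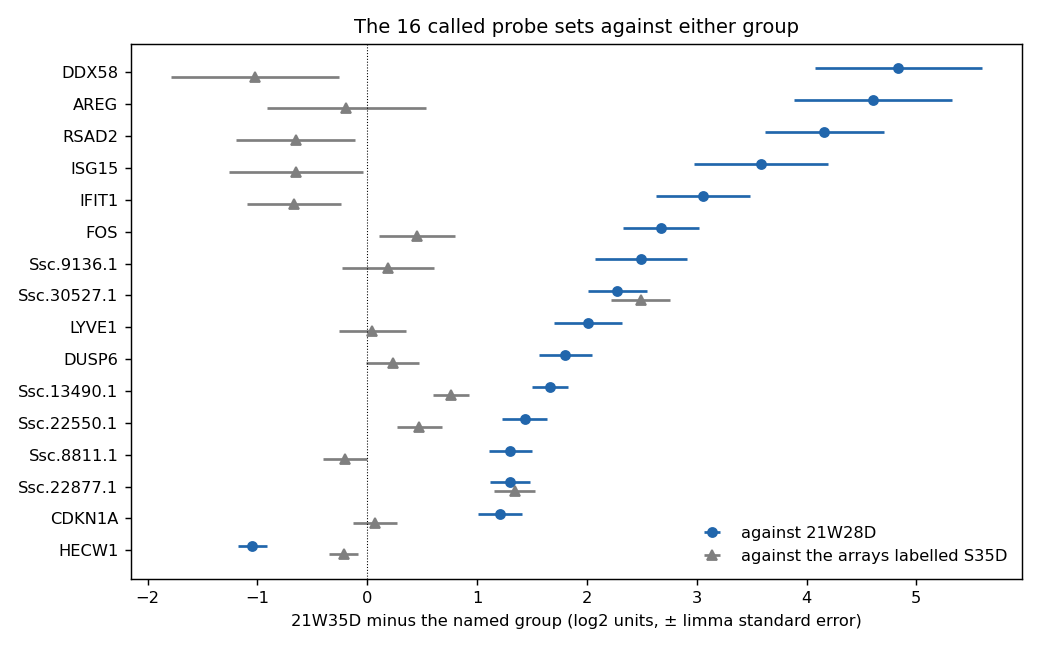
Difference of 21W35D (log2 units, x axis, ± limma standard error) from 21W28D (circles) and from the arrays labelled S35D (triangles) for the 16 called probe sets (y axis). The interferon-induced genes lie at 3.05 to 4.84 against 21W28D and at -1.02 to -0.65 against the arrays labelled S35D. Ssc.30527.1, which was dim in 21W28D and in the arrays labelled S35D, lies at a similar value against both.

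Some lists turned and others did not. The median of the IFIT and antiviral effectors was -0.45 against the arrays labelled S35D, where 5 of 18 genes lay wholly below (background 4.26%) and none wholly above. Over arrays, the mean level of that list was 11.39, 11.76 and 11.79 in 21W35D and 9.30, 10.11 and 9.60 in 21W28D, and the 21W28D range overlapped that of S28D, at 9.42 to 11.38. In the arrays labelled S35D it was 11.60 to 12.35. T and NK cell genes had a median of 0.90 in that comparison and 8 of 22 genes wholly above (background 3.59%), against 5 of 22 and a median of 0.04 from 21W28D. The median of the ISG15 system and IFI genes was -0.36 from the arrays labelled S35D and that of the sensors -0.44, both of opposite sign to the comparison with 21W28D. Interferon signalling genes, at 0.13, kept a positive median, and the medians of MHC class I (0.04) and of the immediate early and stress genes (0.01) were near 0. DNA replication and mitosis kept its direction, with all 27 genes again negative and a median of -0.44.

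Lymphoid genes had mostly negative differences, which rested largely on 1 array. Of 8 measured B cell genes, none was called, 1 lay wholly below and all 8 had negative differences, with a median of -1.13. CD79B, a signalling chain of the B cell receptor, was at 11.20, 2.93 and 11.01 in 21W35D, against 11.17, 11.88 and 12.17 in 21W28D. CD40, the receptor through which T cells help B cells, was at 10.68, 6.70 and 10.62 in 21W35D and 9.76, 10.84 and 10.91 in 21W28D. Without 21W35D replicate 2 the median of the list was -0.43, and against the arrays labelled S35D it was 0.32, with 7 of the 8 genes positive. CXCL13, the chemokine that draws B cells into follicles, was at 13.84, 3.28 and 13.65 in 21W35D and 12.04, 14.09 and 13.79 in 21W28D. The 2 arrays of 21W35D other than replicate 2 thus lay within the 21W28D range. LTB, a lymphotoxin needed for follicles, followed at 12.05, 5.73 and 11.45 in 21W35D against 11.10, 12.25 and 12.18 in 21W28D. Of the 8 follicle genes none was called, and the median of -0.66 was 0.01 without that array and also 0.01 against the arrays labelled S35D.

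Leukocyte adhesion and Rac genes had a median of -0.48, and of 0.04 without 21W35D replicate 2, with none of 14 called and all 14 overlapping. Against the arrays labelled S35D the median was 0.26. VAV1, the Rac exchange factor of lymphocytes, was at 10.86, 8.23 and 10.82 in 21W35D, against 10.43, 11.26 and 11.34 in 21W28D, and ICAM1, a ligand of leukocyte integrins, at 9.28, 6.35 and 8.94 in 21W35D against 8.50, 9.16 and 9.55 in 21W28D. VCAM1 had a difference of -0.76 with overlapping groups. MHC class II genes, carried by B cells and other antigen-presenting cells, had a median of -0.28, and of 0.33 without that array, and none of 10 was called or separated. Against the arrays labelled S35D their median was 0.79, with 9 of 10 genes positive. SLA-DOA, which tunes peptide loading in B cells, was at 3.43, 2.08 and 2.96 in 21W35D and 3.00, 5.95 and 3.23 in 21W28D. Of the genes the study followed by PCR, which it chose on these samples, 9 were measured, and ISG15 was the called one.

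T cell genes were mixed. Of 22 measured genes of T and NK cells, none was called, 5 lay wholly above and none wholly below. KLRK1, the activating receptor NKG2D, was at 9.29, 9.59 and 9.63 in 21W35D, against 8.43, 7.70 and 8.15 in 21W28D (difference 1.41, adjusted p = 0.184, limma, n = 3 each). The granzyme GZMH differed by 1.42 and CD3G, a chain of the T cell receptor complex, by 0.67, both without overlap, and CD247, its zeta chain, by -1.42 with overlap. CXCL16, a chemokine for T and NKT cells, was at 10.27, 11.13 and 10.99 in 21W35D and 8.47, 9.16 and 9.05 in 21W28D, a difference of 1.90. CXCL16 was not called, and it was the only gene of 22 measured chemokines and cytokines whose groups did not overlap. Over all genes with a symbol, 7.44% lay wholly above and 6.06% wholly below, so this list did not stand out.

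All 27 measured genes of DNA replication and mitosis had negative differences. None was called, 6 lay wholly below and none wholly above, and the median was -0.95, or -0.41 without 21W35D replicate 2, which was the lowest of the 6 arrays for all 25 of them that reached 4 log2 units. MCM2, a subunit of the replicative helicase, was at 9.15, 7.14 and 9.32 in 21W35D, against 9.64, 10.06 and 10.12 in 21W28D. CDC20, an activator of the anaphase-promoting complex, was at 8.76, 6.24 and 8.57 in 21W35D and at 9.10, 9.48 and 9.60 in 21W28D, and BIRC5 (survivin) at 10.50, 8.71 and 10.48 in 21W35D against 10.85, 11.53 and 11.43 in 21W28D. These 3 genes are among the 6 that lay wholly below, so the other 2 arrays of 21W35D were also below all 3 of 21W28D. The other 21 genes overlapped. The mean level of the list was 10.13, 8.55 and 10.13 in 21W35D, against 10.06, 10.81 and 10.90 in 21W28D. Replicates 1 and 3 of 21W35D thus lay above replicate 1 of 21W28D. The B cell list was low in the same array, and the part of B cells in these values was not tested.

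**Figure D4:**
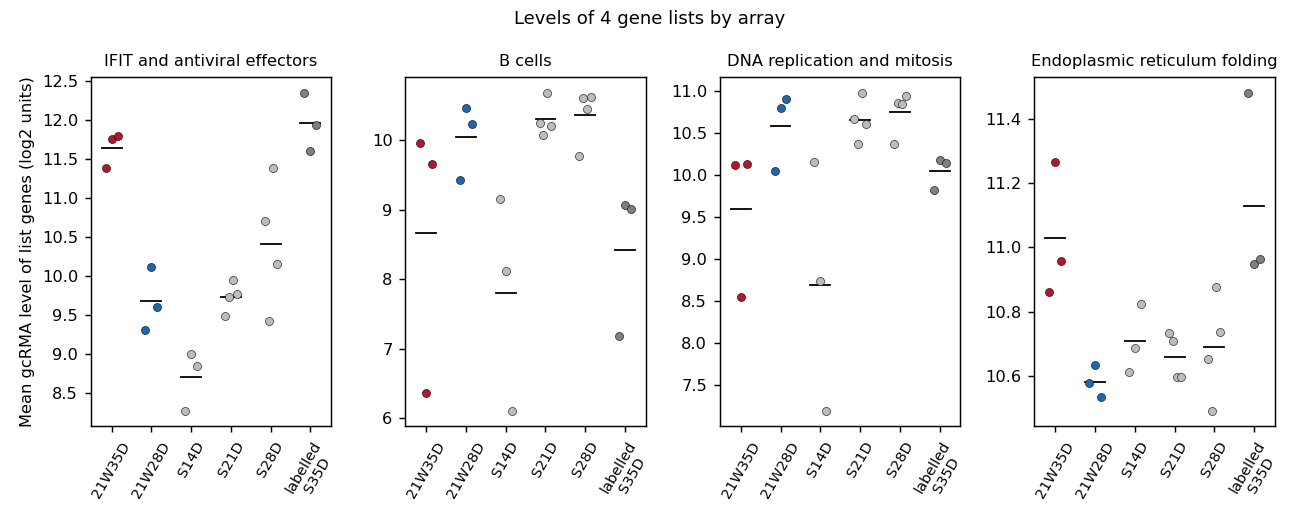
Mean gcRMA level (log2 units, y axis) of the measured genes of 4 lists that reached 4 log2 units, 1 point per array and a line at the group mean, by group (x axis). The IFIT and antiviral effectors separate 21W35D (11.39 to 11.79) from 21W28D (9.30 to 10.11), and in the B cell and DNA replication panels 1 array of 21W35D, replicate 2, lies far below the other 2.

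Chaperones of the endoplasmic reticulum had positive differences in 12 of 15 measured genes. None of the 15 was called, 9 lay wholly above and none wholly below, and the median was 0.51. MANF, a secreted stress protein, was at 11.81, 12.60 and 11.93 in 21W35D and 11.22, 11.23 and 11.27 in 21W28D (difference 0.87, adjusted p = 0.203, limma, n = 3 each). HSPA5 (BiP), the main chaperone of that compartment, was at 14.69, 15.14 and 14.69 in 21W35D, against 14.28, 14.44 and 14.48 in 21W28D. HSP90B1 differed by 0.56 and XBP1, which drives the response to unfolded protein, by 0.50. Replicate 2 of 21W35D was the highest of the 6 for 11 of the 15, and without it the median was 0.41. Against the arrays labelled S35D the median was -0.05.

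Epithelial genes of transport and metabolism had mostly positive differences, none of them called. Not every list median stayed positive when 1 array was left out. That of enterocyte fat export and uptake was 0.46 (11 genes positive, 6 negative) and -0.26 at the lowest in such fits. That of phase I and II detoxification was 0.19 and -0.11 at the lowest, and that of brush border hydrolases 0.33 and 0. The median of oxidative phosphorylation was 0.04, and -0.01 at the lowest. CLDN4, a tight junction protein, was at 8.86, 10.13 and 9.51 in 21W35D and 8.45, 7.70 and 7.73 in 21W28D, a difference of 1.54. It was 1 of 3 among 14 epithelial genes that lay wholly above (median 0.37, and 0.21 at the lowest when 1 array was left out). The highest of the 6 arrays was 21W35D replicate 2 for 10 of the 13 epithelial genes that reached 4 log2 units. SLC3A1, a subunit of the carrier for cystine and basic amino acids, was at 11.12, 11.52 and 11.57 in 21W35D, against 10.10, 9.51 and 9.53 in 21W28D, a difference of 1.69. SLC15A1, the peptide transporter PEPT1, differed by 2.14, and these 2 of 19 measured solute carriers were the ones that lay wholly above. The list's median of 0.67 was 0.24 without 21W35D replicate 2, the highest of the 6 arrays for 11 of 16 carriers. Against the arrays labelled S35D 8 of the 19 carriers had positive differences, and the median of the epithelial genes was -0.15.

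Of 13 measured genes of cholesterol synthesis, 12 had positive differences, 3 lay wholly above and none was called. Their median was 0.70, with 1.01 without 21W35D replicate 2 and 0.53 at the lowest when 1 array was left out. INSIG1, the sterol-regulated brake on this pathway, was at 13.13, 12.65 and 12.92 in 21W35D, against 10.94, 11.98 and 10.90 in 21W28D, and SC5D, a late enzyme of the pathway, differed by 1.12. Against the arrays labelled S35D the median was -0.50. Of 18 lysosomal genes 5 lay wholly above, among them the protease LGMN (1.14) and LAMP2 (0.60), with a list median of 0.03 against the arrays labelled S35D. Against 21W28D that median was 0.44, and 0.23 at the lowest when 1 array was left out. Among genes that reached 4 log2 units, 21W35D replicate 2 was the highest of the 6 arrays for 12 of 17 lysosomal and 9 of 17 glutathione genes. Of 18 glutathione genes 4 lay wholly above, among them the transferases GSTA1 (2.40) and GSTO1 (1.14). GSTA1 was at 11.92, 12.53 and 11.74 in 21W35D and 11.03, 8.33 and 9.63 in 21W28D, and its difference from the arrays labelled S35D was -2.58.

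Of 7 measured eicosanoid genes, PTGES, which makes prostaglandin E2, was at 9.38, 9.76 and 8.73 in 21W35D and 6.63, 8.46 and 7.68 in 21W28D, a difference of 1.70 without overlap. ALOX15, a lipoxygenase, was at 5.82, 2.66 and 6.03 in 21W35D, against 6.51, 7.42 and 7.14 in 21W28D. DMBT1, a mucosal scavenger receptor, differed by 2.19 and was the only 1 of 16 mucosal defence and goblet cell genes that lay wholly above. None of these was called. The share wholly above over all genes was 7.44%, so the mucosal defence list did not stand out. It had 9 positive and 4 negative differences, with a median of 0.17. Smooth muscle genes, a check on how deep the mucosa was scraped, had a median of -0.10, between -0.51 for MYL9 and 0.93 for ACTG2, with none of 11 called. Against the arrays labelled S35D their median was -0.88 with no positive difference, and the mean level of the list was 7.73 to 7.89 in 21W35D, against 8.04, 7.70 and 10.58 in the arrays labelled S35D, the highest being replicate 3. The part of that array in the differences from this group was not tested. The erythrocyte genes had a median of -0.01.

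Apart from HECW1 no gene was called lower, and the largest negative differences without overlap were therefore given as values. They were -2.70 for SIX4, a homeobox factor, -2.24 for OVGP1, -2.19 for ALOX15, -2.08 for POLD2, a subunit of DNA polymerase delta, and -2.06 for SNRPA1, a splicing protein. SNRPA1 was at 3.08, 2.43 and 3.30 in 21W35D and 5.43, 5.08 and 4.50 in 21W28D, and had the lowest adjusted p of them, 0.084 (limma, n = 3 each). MCM5 (-1.80 by the probe set the rule took), FAM162B (-1.70), MBNL3 (-1.68) and PSAT1 (-1.61), an enzyme of serine synthesis, followed. In these 9 genes 21W35D replicate 2 was the lowest array. The rule also took COL8A1, which lay at the floor in all 3 arrays of 21W35D and in replicate 3 of 21W28D, so that no difference can be read for it.

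The change over the same week in suckling piglets was tested as a difference of differences, 21W35D minus 21W28D less the arrays labelled S35D minus S28D. No probe set was called (0.0%), the lowest adjusted p was 0.062 (limma), and 610 probe sets had an unadjusted p under 0.05. For RSAD2 the weaned difference was 4.16 and the suckling one 2.68, and for ISG15 3.59 and 2.21. AREG differed by 4.61 in weaned and 4.00 in suckling piglets, FOS by 2.67 and 1.87, and LYVE1 by 2.01 and 1.59. None of these 5 interactions had an adjusted p below 1.00 (limma, n = 3 each, 4 in S28D). Exchanging the labels of S35D and 21W28D leaves the difference of differences as it is, since the means of both groups are subtracted in it. The weaned and suckling differences given here do change with such an exchange. The weaned one would then be -0.65 for RSAD2 and -0.19 for AREG. Leaving out 1 array at a time gave 0 to 4 calls, the 4 without replicate 2 of the arrays labelled S35D.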

How the data were processed

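Scraped ileal mucosa of 20 piglets was hybridised to GeneChip Porcine Genome arrays, 1 piglet per array. Per the labels, the authors processed the scans with GCOS 1.2 and GCRMA, and the deposited values are log2 levels per probe set (gcRMA: background corrected for base composition, quantile normalized over arrays, summarised per probe set). Within 1 unit of the floor lay 41.6% of the values, where differences are compressed. The number of arrays limits the precision. The sources used here do not say which piglets were littermates. The limma p-values set each difference against a spread between piglets of a group that was estimated over all 20 arrays.

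The 124 control probe sets were left out, and 23999 were tested. Of these, 10069 carried 1 gene symbol in the platform annotation, 198 several and 13732 none. Differences were fitted with limma 3.58.1 (R 4.3.3), with 1 mean for each of the 6 groups over 20 arrays. The methods' t-test was run as an alternative. The fit was tested on simulated data. Genes were named by rule: the 10 largest rises and 10 largest falls among called, non-overlapping probe sets with 1 symbol and a mean of at least 4 in a group, filled with uncalled ones (unadjusted p under 0.05), up to 4 members by size for each list described, the genes followed by PCR and reference genes. Further list members were named after their values were seen. Probe sets whose name ends in _s_at, such as those of RSAD2 and DDX58, hold probes shared by several transcripts. The members and the 41 lists (553 of 862 genes measured) were chosen with earlier results of these data known. Groups share replicate numbers, but the deviations of same-numbered 21W35D and 21W28D arrays correlated at -0.54, -0.32 and 0.45, so that the numbers did not pair them.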

Additional observations from a re-analysis of the deposited data

How the results depend on the processing

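The 16 calls of 21W35D against 21W28D were 16 with an intensity trend and robust variance, 14 with each array centred on its median or quantile normalized again, 19 without the fold minimum and 20 with 1 probe set per named gene. They were 44 (41 higher) when a probe set had to reach 4 log2 units in 3 or more arrays, 267 (217 higher) with array weights, whose estimation did not converge, and 220 (174 higher) with the methods' t-test without adjustment. With Benjamini-Hochberg adjustment that t-test called 0 (968 before adjustment), and limma with only the 6 arrays of both groups in the fit also called 0 (1172 with unadjusted p under 0.05). Leaving out 1 array gave 9 to 32 calls. With the replicate block 2 calls remained, both higher, although the numbers did not pair the arrays. Exchanging the S35D and 21W28D labels gave 5 calls, and of the 16 probe sets 6 changed sign: DDX58 (-1.02), IFIT1 (-0.67), RSAD2 (-0.65), ISG15 (-0.65), Ssc.8811.1.S1_at (-0.20) and AREG (-0.19). Another 8 kept their sign and were no longer called, and 2 were called. Of 167 other named probe sets, none called, 90 changed sign in that exchange. The 0 calls of the difference of differences became 2 with the filter on dim probe sets and 0 to 4 when 1 array was left out, and stayed 0 with the replicate block (622 at an unadjusted p under 0.05), with only 13 arrays in the fit (423) and with the labels exchanged (610). The cause of these changes was not tested. Levels near the floor allow no difference to be read.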
